A study of Mus musculus with 3 samples.

Results

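The 8 genes described here are members of the fibroblast growth factor (FGF) pathway in mouse prostate and urogenital sinus. They are the ligands Fgf2, Fgf7 and Fgf21, the receptors Fgfr1, Fgfr2 and Fgfr3, and the feedback genes Spry1 and Dusp6. They were taken by name from a list of FGF genes and are 8 of the 9781 gene rows used. Single cell RNA-seq was done on 3 tissues, with 1 library for each. The youngest was the male urogenital sinus (UGS), from which the prostate grows, taken at E18.5, and the other two were prostates of P14 and P35 animals. All were labelled as normal, and the labels gave neither a genotype, strain nor agent. In the methods the experimental mice had a mixed background of C57BL/6 and 129S1/SvImJ, and the reference used for counting also carried the transgene sequences mGFP and hARtg. Tissue was dissociated with collagenase and TrypLE. The column names end in 1, 2 or 3 with no key to the tissues, so the cells are described as barcode sets 1, 2 and 3, and no comparison between ages was made.

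FGFs are secreted proteins that bind receptor tyrosine kinases on the cell surface, with heparan sulfate chains as cofactors. Bound receptors pass the signal through adaptors to the RAS and MAP kinase cascade, which switches on genes that in turn dampen it. In the prostate, ligands made by the mesenchyme are known to act on the epithelial form of FGFR2 during budding and branching. Fgf21 belongs to the endocrine subfamily, which binds heparan sulfate weakly and needs a klotho protein as coreceptor.

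Promoters were read for 7 of the 8 members, as 300 bases from 250 before to 50 after the gene start in RefSeq, build GRCm38.p6. The window of Fgf2 (37348403 to 37348702) instead lay further into the gene, whose start is 37348477. Fgfr3 had a second window, at 33722056 to 33722355. The sequences of Fgf21, which was higher in fibroblasts, and of Fgfr2 and Dusp6, which were higher in epithelium, are shown because these genes lay on opposite sides of the comparison below. Each is printed 5′ to 3′ on the strand of its gene, and capitals mark matches to the searched motifs.
Fgf21, chr7:45615441-45615740, minus strand: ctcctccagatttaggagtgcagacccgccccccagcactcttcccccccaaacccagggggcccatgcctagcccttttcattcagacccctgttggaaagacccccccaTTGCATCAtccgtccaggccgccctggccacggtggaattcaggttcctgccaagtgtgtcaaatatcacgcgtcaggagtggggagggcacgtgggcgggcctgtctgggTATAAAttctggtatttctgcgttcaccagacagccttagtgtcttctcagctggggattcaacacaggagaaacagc
Fgfr2, chr7:130266759-130267058, minus strand: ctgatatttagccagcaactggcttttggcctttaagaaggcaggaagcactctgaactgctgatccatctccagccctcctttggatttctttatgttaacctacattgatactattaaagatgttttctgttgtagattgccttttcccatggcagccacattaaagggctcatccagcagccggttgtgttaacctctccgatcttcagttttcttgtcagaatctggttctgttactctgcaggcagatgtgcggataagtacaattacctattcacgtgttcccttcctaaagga
Dusp6, chr10:99262981-99263280, plus strand: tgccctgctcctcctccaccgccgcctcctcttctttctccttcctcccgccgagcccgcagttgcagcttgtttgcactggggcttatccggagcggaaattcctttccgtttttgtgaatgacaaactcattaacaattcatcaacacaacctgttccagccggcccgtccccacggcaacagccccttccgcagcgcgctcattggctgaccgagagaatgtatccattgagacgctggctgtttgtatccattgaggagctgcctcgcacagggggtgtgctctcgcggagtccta

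Motifs were searched on both strands, and none of the searched motifs contains another. The ETS core, CCGGAA, was present in 14.9% of all 32851 promoters of the same length. The AP-1 motif, TGANTCA, was present in 7.81% of them. The motif of ATF4-type factors, TGATGNAA, was present in 3.97%. The TATA box, TATAAA, was present in 13.6%. Fgf21 held 1 match to TGATGNAA, on the reverse strand, starting at -139 from the gene start, and 1 to TATAAA starting at -28. None of these letters were found in the windows of Fgf2, Fgf7, Fgfr2, Fgfr3, Spry1 or Dusp6, which says nothing about the factors. The CG dinucleotide occurred 9 times in the Fgf21 window, 4 times in that of Fgfr2 and 19 times in that of Dusp6, against a median of 7 over all promoters.

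Set 1 held 766 cells, set 2 held 5350 and set 3 held 8457, of which 97 cells of set 3 with under 200 genes were left out. UMIs, or unique molecular identifiers, tag the mRNAs captured from a cell, and their median per cell was 19357, 1738 and 1788, so set 1 was the most deeply sampled. Sets 1 and 2 shared 1 barcode and sets 2 and 3 shared 13. Clustering without the FGF genes gave 14 clusters, which were named by marker genes as epithelium-like, fibroblast-like, smooth muscle-like, endothelium-like, pericyte-like, leukocyte-like, glia-like and neuron-like; the suffix is dropped below. Levels are given as CPM, the count of a gene's UMIs in every 1000000 captured from the pooled cells of a class. The smooth muscle cluster was also led by the troponin genes Tnnt2, Tnnc2 and Tnnt1, and its cells in set 1 held 4814 CPM of erythroid markers, as did the endothelium of set 2 with 4203 CPM. Clusters 7 and 10 were left unnamed. All intervals are 95% intervals for counting error only, since no class had a replicate library. Levels were not compared between genes, because the 3′ assay does not capture all mRNAs alike. With summed UMIs, less RNA per cell and fewer expressing cells cannot be told apart.

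**Figure D1:**
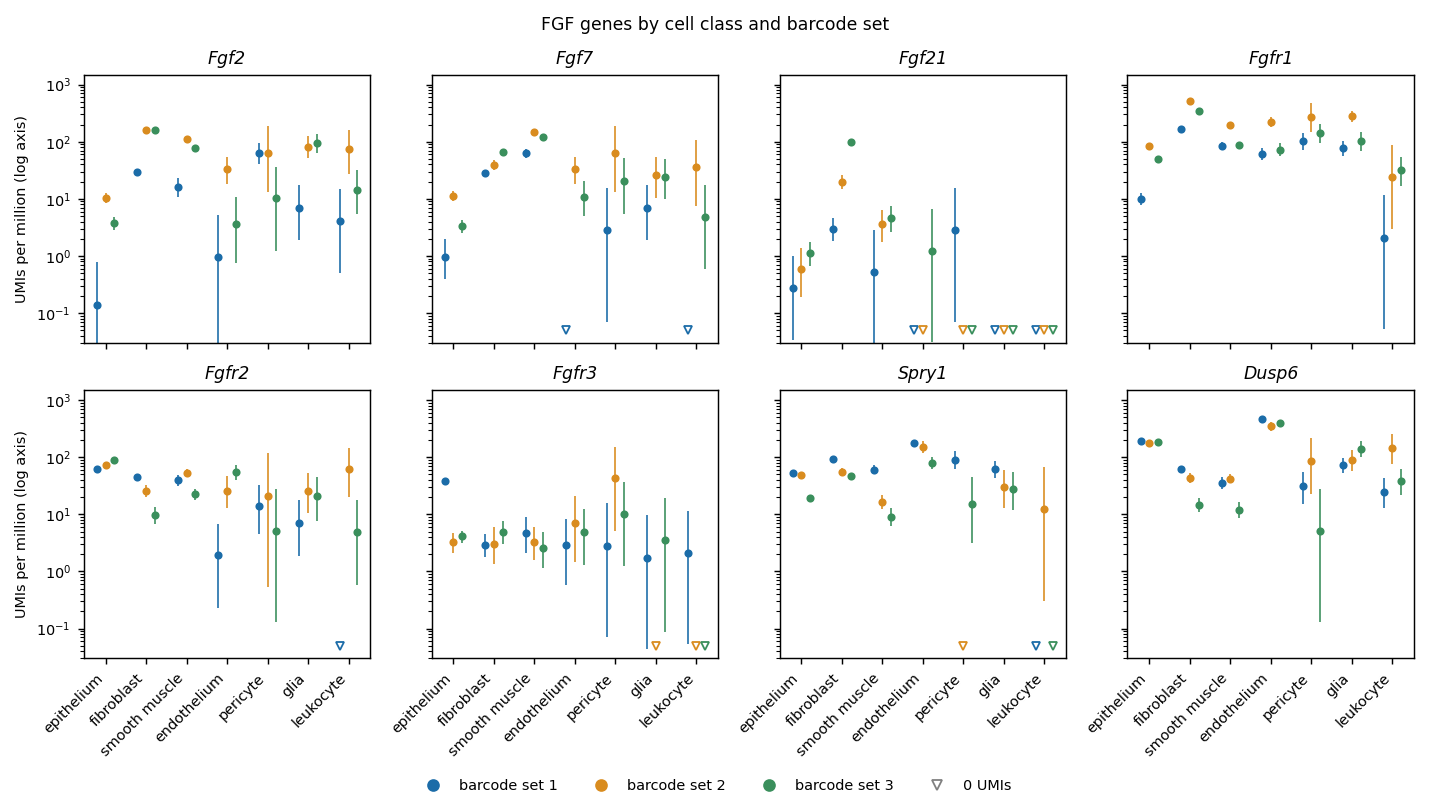
Summed level of each FGF gene in CPM (log axis) by cell class, with a point for each barcode set, bars for the exact 95% Poisson interval, and open triangles at the bottom for 0 UMIs. Fgf2, Fgf21 and Fgfr1 stood higher in fibroblasts than in epithelium, Fgfr2 and Dusp6 stood higher in epithelium, and Dusp6 was highest in endothelium in all 3 sets.

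Fgf2, Fgf21 and Fgfr1 were higher in fibroblasts than in epithelium in each set, and Fgf7 was highest in smooth muscle. Dusp6 was higher in epithelium than in fibroblasts, and higher in basal than in luminal cells. Of the named classes, endothelium had the highest levels of Spry1 and Dusp6. Fgfr2 was higher in epithelium by a margin that differed between sets, and Fgfr3 was higher there in set 1 alone.

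Fgf2 encodes a ligand without a classical signal peptide that binds several FGF receptors. Its level in fibroblasts was 29.3 CPM in set 1 (25.4 to 33.7), 158 in set 2 (143 to 174) and 158 in set 3 (146 to 171). In smooth muscle it was 16.1, 112 and 76.8 CPM. Epithelium had 0.139 CPM in set 1, from 1 UMI, and 10.5 and 3.76 CPM in sets 2 and 3, so fibroblasts lay above epithelium in each set with no overlap of intervals. Within fibroblasts, cells with a UMI made up 28.3%, 20.1% and 18.48%, and in leukocytes 5.26%, 12% and 3.39%. Pericytes of set 1 stood above the other named classes at 64.2 CPM (40.7 to 96.4), from 23 UMIs in 5 of 14 cells. The Fgf2 gene overlaps Nudt6, which is transcribed in antisense, between 37404982 and 37410106 on chromosome 3 (GRCm38.p6). Nudt6 was near the same level in fibroblasts (2.67, 5.37 and 3.67 CPM) and in epithelium (2.65, 4.33 and 3.64 CPM), unlike Fgf2.

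Fgf7, a mesenchymal ligand of the epithelial form of FGFR2, had its highest level in smooth muscle in every set. Smooth muscle held 63.4 CPM in set 1 (52.6 to 75.7), 147 in set 2 (134 to 161) and 123 in set 3 (112 to 135). The class was not alike in the 3 sets, as its summed smooth muscle markers were 3761, 24550 and 23680 CPM and its fibroblast markers 6181, 5166 and 3271 CPM. In set 1 pericytes held more of the smooth muscle markers, at 5212 CPM. Fibroblasts held 27.8, 38.7 and 66.6 CPM, and the intervals did not overlap with those of smooth muscle. On the log2 scale smooth muscle exceeded fibroblasts by 1.19 (0.85 to 1.52) in set 1, 1.93 (1.61 to 2.25) in set 2 and 0.88 (0.66 to 1.11) in set 3, the last under 2-fold. In this comparison 1 of 8, 2 of 7 and 1 of 8 tested members were at least 2-fold higher in smooth muscle, against 4.23%, 9.73% and 12.3% of all genes tested. These were Fgf7 in set 1, Fgf7 and Fgfr2 in set 2, and Fgfr2 in set 3. At least 2-fold lower were 0, 3 and 4 members, against 8.56%, 9.89% and 15.1% of all genes. Fgf21, Fgfr1 and Spry1 were lower in sets 2 and 3, joined in set 3 by Fgf2 at -1.04. Pericytes of set 2 held 63.6 CPM with a wide interval (13.1 to 186), which overlapped that of smooth muscle. Epithelium held 0.975, 11.3 and 3.29 CPM. In epithelium the summed fibroblast markers were 204.5, 1537 and 903.5 CPM, and those of smooth muscle were 53.05, 1275 and 413.5 CPM, so both the ligand and these markers were highest in the epithelium of set 2. The part of these stromal RNAs in the epithelial values was not tested.

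Fgf21, an endocrine ligand best known from liver, was detected mainly in fibroblasts. It was at 2.96 CPM in set 1 (1.81 to 4.57), 19.9 in set 2 (14.9 to 26.1) and 98.6 in set 3 (88.9 to 109). Fibroblasts contributed 54.1%, 70.3% and 87.9% of all its UMIs. Smooth muscle had 0.520, 3.58 and 4.54 CPM and epithelium 0.279, 0.601 and 1.12 CPM. No UMI was found in glia, leukocytes or neurons of any set, where 0 of 236 glia of set 3 allows a share of cells with a UMI of up to 1.27% and 0 of 177 leukocytes up to 1.69%, taking 3 cells as the limit that a count of 0 allows. This does not limit the share of cells that express the gene. In set 3 the gene was seen in 187 of 2641 fibroblasts, and the 10 cells with the most UMIs held 20.7% of 376. In set 1 fibroblasts held 20 UMIs in 11 cells. The unnamed cluster 7, led by the muscle genes Msc, Myf5 and Myod1 but which also carried 9 epithelial, 6 smooth muscle and 4 fibroblast markers, held a further 13 of the 37 UMIs of set 1, in 6 of its 15 cells, which gave it 18.3 CPM (9.72 to 31.2).

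Fibroblasts formed 2 clusters, and Fgf21 differed between them. Cluster 1 was led by Lamc3, Mmp2, Col15a1 and Tcf21, and cluster 2 by Dpt, Lum and Mfap5. Fgf21 was at 3.61, 32.6 and 156 CPM in cluster 1 and at 2.33, 9.20 and 31.8 CPM in cluster 2. The log2 ratio of cluster 1 over cluster 2 was 1.83 (0.89 to 2.86) in set 2 and 2.30 (1.88 to 2.74) in set 3, while in set 1 it was 0.63 with an interval that contained 0 (-0.78 to 2.12). Fgf21 was itself among the 10 leading genes of cluster 1, so this is a description of clusters made from the same cells, although FGF genes were left out of the clustering. At least 2-fold higher in cluster 1 were 1 of 8, 2 of 7 and 2 of 7 tested members in sets 1, 2 and 3, against 18%, 3.89% and 4.97% of all genes tested. These were Fgfr2 in set 1, Fgf21 and Dusp6 in set 2, and Fgf21 and Spry1 in set 3. Dusp6 gave -0.11 (-0.39 to 0.17) in set 1, 1.22 (0.64 to 1.83) in set 2 and 0.75 (-0.09 to 1.62) in set 3. Spry1 was also higher in cluster 1 of set 3, with a log2 ratio of 1.70 (1.17 to 2.27), and of set 1, with 0.96 (0.72 to 1.21), while set 2 gave -0.44 (-0.95 to 0.05). Fgf2, Fgf7 and Fgfr1 stayed within 2-fold between the clusters in all sets.

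**Figure D2:**
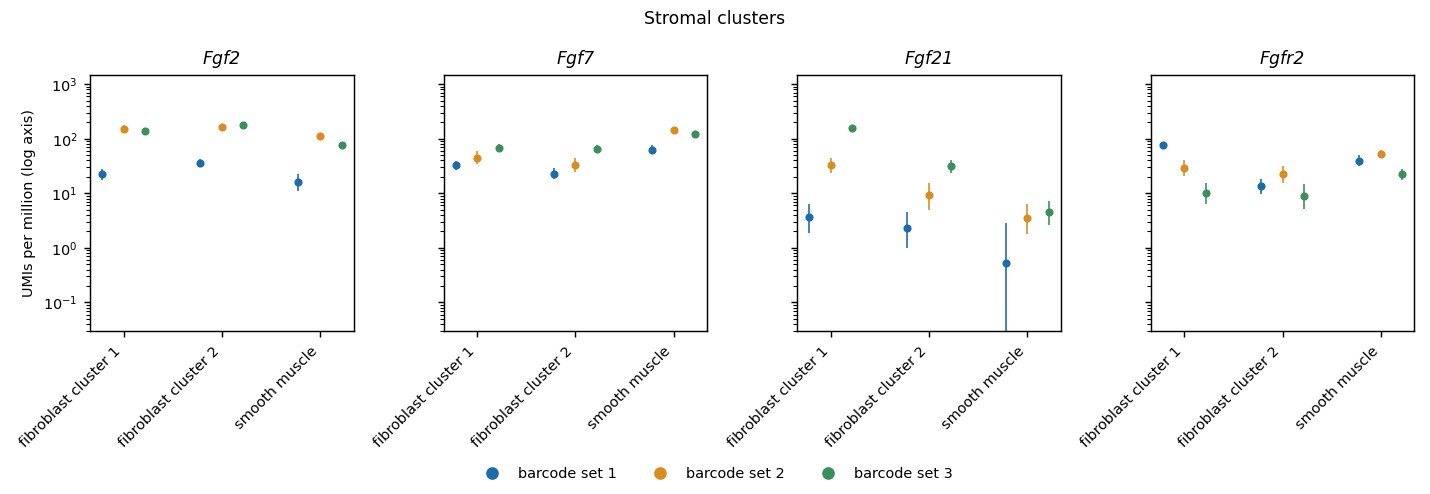
Levels of Fgf2, Fgf7, Fgf21 and Fgfr2 in CPM (log axis) in both fibroblast clusters and in smooth muscle, with a point for each barcode set and bars for the exact 95% Poisson interval. Fgf21 of set 3 was 156 in cluster 1 and 31.8 in cluster 2, Fgf7 peaked in smooth muscle, and Fgfr2 of set 1 was 77.0 in cluster 1 and 13.4 in cluster 2.

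Among the receptors, Fgfr1 was highest in fibroblasts. It was at 165.5 CPM in fibroblasts of set 1 (156 to 175), 512 of set 2 (485 to 540) and 340 of set 3 (322 to 359), above the other named classes with no overlap. Smooth muscle held 83.7, 193 and 89.3 CPM, glia 78.0, 278 and 101.5 CPM, and endothelium 61.8, 223 and 72.5 CPM. The intervals of glia and of pericytes overlapped in each set. Epithelium held 10.0, 85.0 and 49.9 CPM, and leukocytes 2.09, 24.4 and 31.5 CPM. After each cell was thinned to 900 UMIs, 14.2%, 34.8% and 25.0% of fibroblasts had an Fgfr1 UMI, against 86.4%, 47.9% and 34.7% before. In epithelium the thinned shares were 1.36%, 7.88% and 4.05%, against 0%, 0% and 2.98% in leukocytes, which are not expected to carry the gene. The 25 leukocytes of set 2 held 5977 CPM of the summed smooth muscle markers, so they are a poor blank for stromal genes.

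Fgfr2, the receptor whose epithelial form binds Fgf7, was higher in epithelium. Epithelium held 63.2 CPM in set 1 (57.5 to 69.3), 73.2 in set 2 (67.5 to 79.2) and 89.2 in set 3 (84.7 to 93.8). Fibroblasts held 44.7, 25.7 and 9.71 CPM, so the log2 ratio was 0.50 (0.29 to 0.71) in set 1, 1.51 (1.15 to 1.90) in set 2 and 3.199 (2.73 to 3.71) in set 3. The set 1 value depended on which fibroblasts were taken, as cluster 1 was at 77.0 CPM and cluster 2 at 13.4 CPM. Against cluster 1 alone, chosen after the values were seen, the ratio turned to -0.28, and against cluster 2 alone it was 2.24. Smooth muscle held 39.5, 52.8 and 22.4 CPM. In endothelium the level was 1.90, 25.8 and 54.4 CPM, from 2, 11 and 45 UMIs. The summed epithelial markers in the same cells were 38.0, 511 and 832.5 CPM and those of basal epithelium 190.2, 1064 and 1911 CPM, and their part in these values was not tested. Sfn and Itga6 of the basal list were among the markers that the endothelium cluster carried. The table does not separate the splice forms of the receptor.

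Fgfr3 encodes a receptor with its own epithelial splice form. In set 1 it was at 39.0 CPM in epithelium (34.6 to 43.8), 4.68 in smooth muscle and 2.96 in fibroblasts, and 87.2% of its UMIs were epithelial. Epithelium of sets 2 and 3 held 3.245 and 4.11 CPM, from 27 and 70 UMIs, next to 3.07 and 4.99 CPM in fibroblasts. The log2 ratio over fibroblasts was 3.72 (3.06 to 4.45) in set 1, 0.08 (-1.10 to 1.43) in set 2 and -0.28 (-1.02 to 0.54) in set 3, so the last 2 intervals contained 0 and their upper bounds lay below the interval of set 1. Thinned to 900 UMIs, 4.08%, 0.209% and 0.365% of epithelial cells had a UMI of it. Before thinning these shares were 70.3%, 1.87% and 2.37%, with a median of 42090, 4088 and 3557 UMIs per epithelial cell. Leukocytes had 1 UMI of Fgfr3 in set 1 and none in the other sets, with median depths of 10310, 2027 and 2003 UMIs.

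Spry1, an inhibitor of receptor tyrosine kinase signaling, was highest in endothelium, at 175 CPM in set 1 (151 to 202), 152 in set 2 (118 to 194) and 79.8 in set 3 (61.7 to 101). Fibroblasts came next at 93.3, 56.0 and 46.4 CPM, below endothelium without overlap. Epithelium held 51.9, 49.6 and 19.2 CPM, and its interval overlapped that of fibroblasts in set 2. Leukocytes had 0, 1 and 0 UMIs. Pericytes of set 1 held 89.3 CPM (61.1 to 126), which overlapped fibroblasts, and those of set 2 had 0 UMIs in 30 cells.

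Dusp6 encodes a phosphatase that inactivates ERK, and is a common target of the pathway. Endothelium held 469 CPM in set 1 (428 to 512), 347 in set 2 (293 to 407) and 389 in set 3 (348 to 434). Epithelium followed at 190.1, 175 and 182 CPM, although its interval overlapped those of leukocytes and pericytes in set 2 and of glia in set 3, and fibroblasts lay at 63.2, 43.3 and 14.7 CPM. The log2 ratio of epithelium over fibroblasts was 1.59 (1.43 to 1.75), 2.02 (1.74 to 2.31) and 3.63 (3.25 to 4.04). Over the alternatives given below, which include parts of either class, it ranged from 0.70 to 2.65, 1.00 to 2.71 and 1.45 to 4.45. Endothelium over fibroblasts gave 2.89 (2.70 to 3.08), 3.001 (2.64 to 3.37) and 4.73 (4.31 to 5.16), where 11.3%, 14.9% and 20.8% of genes were at least 2-fold higher. Thinned to 900 UMIs, 18.4%, 16.7% and 16.9% of epithelial cells had a UMI, against 6.11%, 3.86% and 1.33% of fibroblasts and 0%, 4.35% and 3.57% of leukocytes. The leukocytes of set 2, with 12 UMIs of Dusp6, held 1708 CPM of epithelial and 2476 CPM of basal markers. They are thus a poor blank for this gene too.

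**Figure D3:**
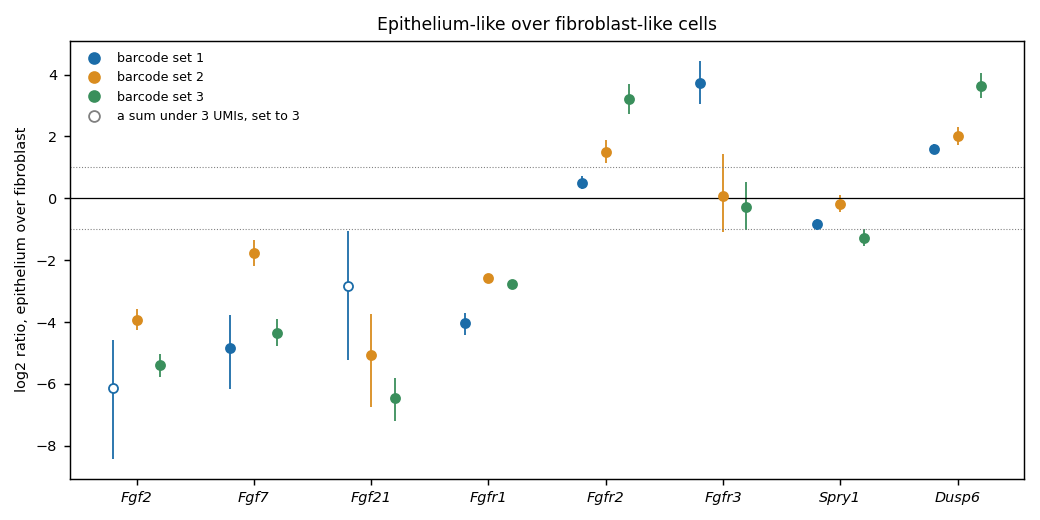
Log2 ratio of the summed level in epithelium over that in fibroblasts for the 8 genes, with a point for each barcode set, bars for the exact 95% interval and dotted lines at 2-fold. Fgf2, Fgf7, Fgf21 and Fgfr1 lay below -1 in all sets, Dusp6 lay above 1, and Fgfr3 lay above 1 in set 1 alone.

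Across all 8 members, 2 were at least 2-fold higher in epithelium than in fibroblasts in each set. These were Fgfr3 and Dusp6 in set 1 and Fgfr2 and Dusp6 in sets 2 and 3. Among all genes tested, with at least 20 UMIs in both classes together, 16.3%, 17.4% and 23.2% were. At least 2-fold lower were 4, 4 and 5 members, against 24.6%, 18.9% and 21.3% of all genes. The lower members were Fgf2, Fgf7, Fgf21 and Fgfr1 in each set, with Spry1 added in set 3 at -1.27 (-1.54 to -1.001). The ratios of Fgf2 were -6.13 (-8.42 to -4.57), -3.92 (-4.27 to -3.58) and -5.39 (-5.79 to -5.02), and those of Fgf21 were -2.83 (-5.22 to -1.07), -5.05 (-6.73 to -3.74) and -6.46 (-7.21 to -5.80). In set 1 both rested on an epithelial sum under 3 UMIs that was set to 3. Fgf7 gave -4.84 (-6.17 to -3.77), -1.78 (-2.20 to -1.36) and -4.34 (-4.78 to -3.92). Over the alternatives given below, its set 2 value ranged from -3.91 to -1.28. Fgfr1 gave -4.04 (-4.41 to -3.70), -2.59 (-2.72 to -2.46) and -2.77 (-2.90 to -2.64). Some of these calls depended on the cells used. With cells of at least 500 genes Fgfr2 of set 2 was 0.89, Spry1 of set 3 was -0.77 and Fgf21 of set 1, with few UMIs, was -0.51. This filter, with clustering redone, left 629 and 614 fibroblasts in sets 2 and 3, against 1678 and 2641. It left 1148 and 2126 epithelial cells there, against 1443 and 2780. With cells thinned to 900 UMIs the epithelium of set 1 had 0 UMIs of Fgf2 and Fgf7, so no direction could be read there. With cells classed one by one from their marker UMIs, Dusp6 of set 1 was 0.99 and Fgfr2 of set 2 was 0.81. That rule read only epithelial and fibroblast markers, so other stromal cells could count as fibroblasts. It gave 526, 3076 and 4195 fibroblasts, against 346, 1678 and 2641 in the main result. Epithelial cells numbered 153, 606 and 1440, against 148, 1443 and 2780. The median ratio of the 8 members was -1.84, -0.97 and -2.02, next to -0.15, -0.03 and 0.18 over all genes tested.

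Epithelial cells fell into basal, luminal and further groups. The 2 basal clusters each carried 7 markers of the basal list, such as Lamb3 and Sfn, and the one led by Lamb3, Shh and Nrg1 also carried 6 of the luminal list. A further epithelial group, cluster 11, was led by Wfdc15b, Folr1, Cd52 and Upk1a and is called by its number, since it carried 7 luminal and 4 urothelial markers. Dusp6 was higher in basal than in luminal cells in each set, at 396, 241 and 322 CPM against 103, 93.2 and 91.4 CPM. The log2 ratio was 1.95 (1.77 to 2.13) in set 1, 1.37 (1.19 to 1.55) in set 2 and 1.82 (1.70 to 1.93) in set 3, in a background of 8.73%, 9.26% and 9.75% of genes at least 2-fold higher in basal cells. Fgfr2 was 77.9, 78.8 and 122 CPM in basal cells and 63.8, 59.8 and 59.7 CPM in luminal cells. Its ratio was 0.29 with an interval that contained 0 (-0.02 to 0.59) in set 1, 0.40 (0.15 to 0.65) in set 2 and 1.03 (0.87 to 1.19) in set 3. Cluster 11 held 44.2, 145 and 129.9 CPM of Fgfr2, which over luminal cells was -0.53 (-0.94 to -0.13) in set 1, 1.28 (0.77 to 1.76) in set 2 and 1.12 (0.87 to 1.37) in set 3 on the log2 scale, where 8.64%, 10.3% and 7.46% of genes were at least 2-fold higher. Spry1 was higher in cluster 11 of set 1 than in luminal cells, at 95.7 against 35.7 CPM, with a log2 ratio of 1.42 (1.07 to 1.77). In sets 2 and 3 it was under 2-fold, at 0.66 (-0.17 to 1.39) and 0.87 (0.31 to 1.40). Fgfr3 of set 1 was 49.6 CPM in luminal cells, 32.3 in basal cells and 19.4 in cluster 11.

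**Figure D4:**
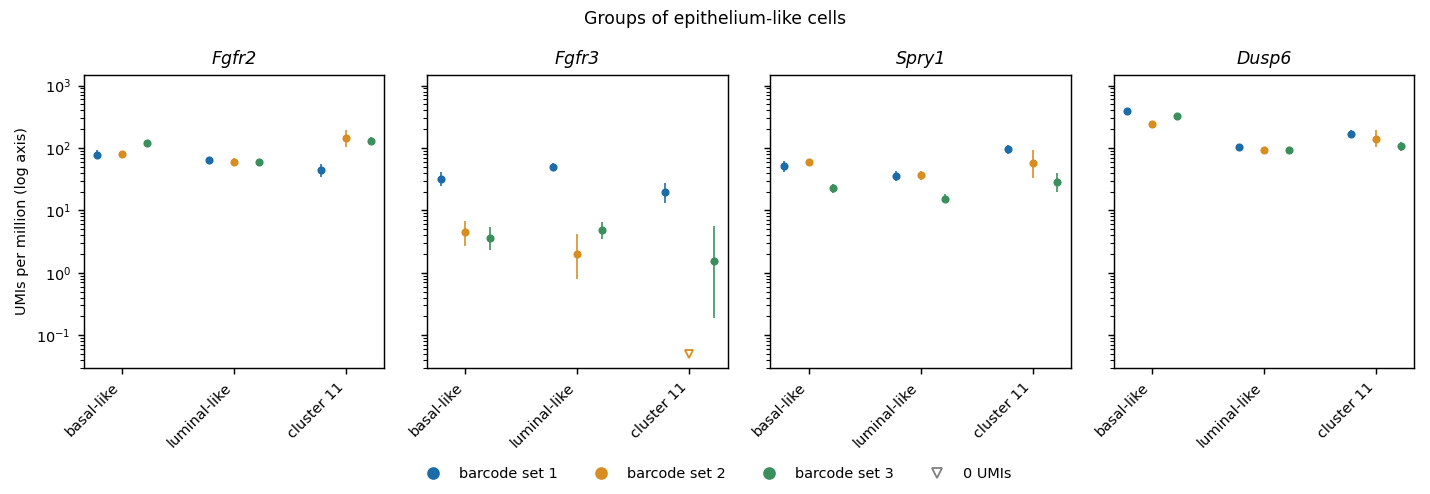
Levels of Fgfr2, Fgfr3, Spry1 and Dusp6 in CPM (log axis) in basal-like and luminal-like epithelium and in cluster 11, with a point for each barcode set, bars for the exact 95% Poisson interval and an open triangle for 0 UMIs. Dusp6 was 396, 241 and 322 in basal cells and 103, 93.2 and 91.4 in luminal cells.

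The wider pathway was read from lists of 83 genes, of which 44 had a row. Over all genes tested the median ratio of epithelium over fibroblasts was -0.15, -0.03 and 0.18. Only 8 of the 22 listed ligands had a row, so nothing can be said here of the others, Fgf10 among them. Of the ligands with a row other than the members, only Fgf13 had enough UMIs to test, and it stayed within 2-fold. Of the 4 tested receptors, Fgfrl1, a receptor without a kinase domain, was lower in epithelium at -1.59, -1.25 and -1.09. Of the 16 listed feedback and target genes, 6 had a row. At least 2-fold higher were 2, 1 and 2 of them, against 16.3%, 17.4% and 23.2% of all genes. Lower were 2, 2 and 3, against 24.6%, 18.9% and 21.3%. Their median was -0.53, -0.84 and -0.73. Among them Spred1, an inhibitor of the RAS to RAF step, was lower at -2.13, -1.92 and -1.86, and so was the adaptor Sh2b3 at -1.16, -2.11 and -2.27. Dusp4, a phosphatase like Dusp6, was higher in set 1 at 1.79 and in set 3 at 1.52 but at -0.75 in set 2.

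Of 11 adaptors and kinases, 10, 10 and 9 stayed within 2-fold. At least 2-fold higher were 1, 1 and 2, against 16.3%, 17.4% and 23.2% of all genes, and 0 were lower, against 24.6%, 18.9% and 21.3%. The median ratio was -0.07, -0.02 and 0.36, next to -0.15, -0.03 and 0.18 over all genes. Hras was the exception in all sets, at 1.42, 1.58 and 1.64, joined in set 3 by Mapk3, which encodes ERK1, at 1.10. The list of heparan sulfate and matrix cofactors had 10, 7 and 6 of 14 genes at least 2-fold lower in epithelium, against 24.6%, 18.9% and 21.3% of all genes. It had 2, 3 and 2 genes higher, against 16.3%, 17.4% and 23.2%, and a median of -1.59, -1.14 and -0.88. The sulfatase genes Sulf1 (-4.02, -3.44 and -5.33) and Sulf2 (-3.75, -3.52 and -5.70) and the glypican Gpc3 (-3.26, -2.45 and -4.56) were among them. Those higher in epithelium were Fgfbp1, which encodes a carrier that releases FGFs from the matrix, at 6.64, 4.87 and 7.18, the syndecan Sdc4 in sets 1 and 2, at 2.56 and 1.02, and Flrt3 in sets 2 and 3, at 1.01 and 1.12. The last sum for Fgfbp1 rested on 3 UMIs in fibroblasts of set 3.

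**Figure D5:**
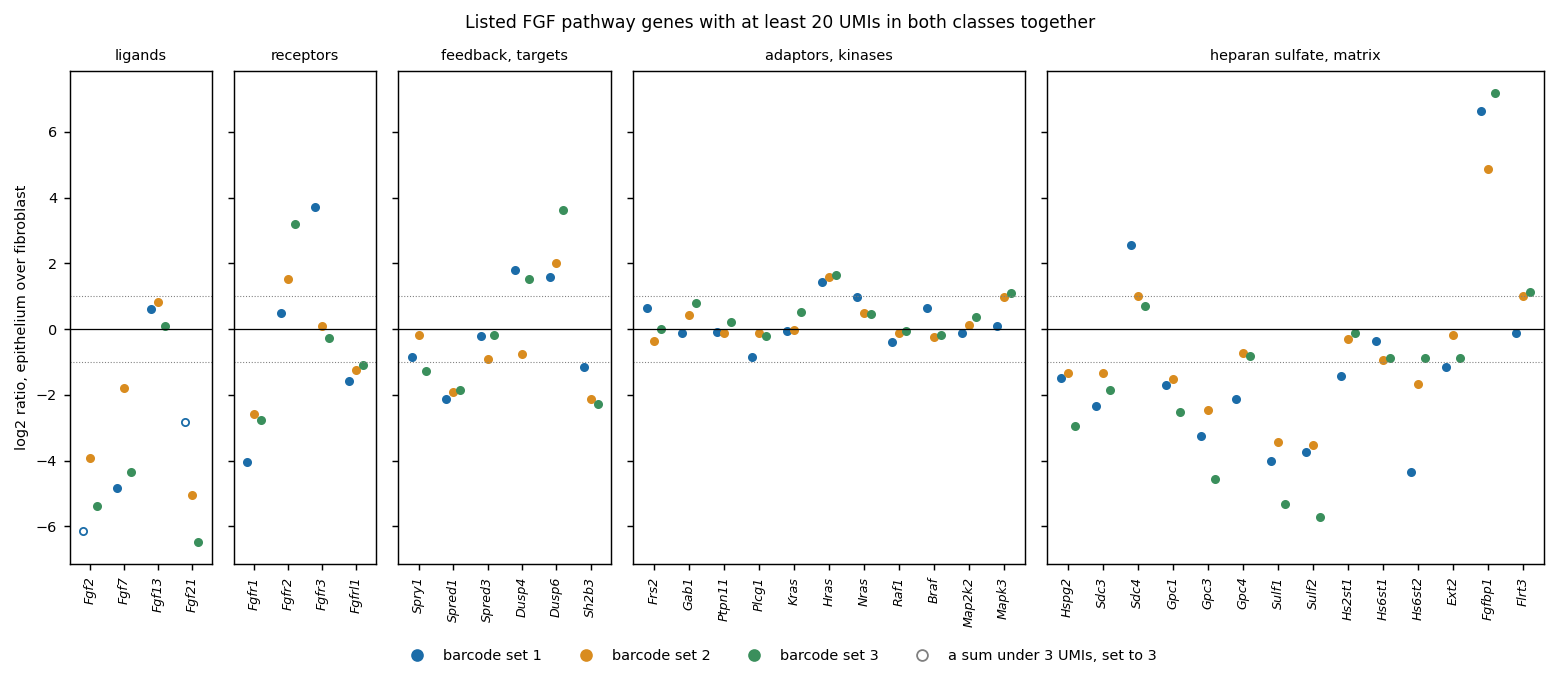
Log2 ratio of epithelium over fibroblasts for the listed pathway genes with at least 20 UMIs in both classes together, grouped by role, with a point for each barcode set, dotted lines at 2-fold and open points where a sum under 3 UMIs was set to 3. Fgf2, Fgf7, Fgf21, Sulf1, Sulf2 and Gpc3 lay below -1 in all sets, most adaptors and kinases lay near 0, and Fgfbp1 lay far above it.

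Members were also read within single cells. In epithelium of set 3, 291 of 2780 cells had UMIs of both Fgfr1 and Fgfr2, where the product of the shares gives 184. After thinning, 9 cells had both, where 6.60 would be given. For Fgf2 and Fgfr1 in fibroblasts of set 3 the thinned counts were 85 and 70.4, and in set 2 they were 68 and 65.8. For Dusp6 and Spry1 in epithelium of set 3 they were 14 and 7.95. In set 2 the thinned counts for Fgfr1 and Fgfr2 in epithelium were 8 and 7.88, and for Dusp6 and Spry1 they were 10 and 10.0. Spry1 and Fgfr2 in epithelium gave 6 and 4.18 in set 2 and 1 and 2.79 in set 3. Cells with more UMIs show more genes of any kind, so the thinned counts are the ones to read.

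Over 23 class and set points with at least 50000 UMIs, the gene whose level of log2(CPM + 5) was most like a member was Cxcl13 for Fgf21 (Pearson r 0.905) and Nptx2 for both Fgf7 (0.891) and Fgf2 (0.874). For Fgfr1 it was Sntb2 (0.891), for Fgfr2 Amd1 (0.864), for Fgfr3 Gpr39 (0.817), for Spry1 Mpzl1 (0.864) and for Dusp6 Itga6 (0.851). Itga6 encodes an integrin subunit, and as a marker it was carried by the basal clusters and by the endothelium cluster. These points share libraries and cell classes, so the values are a description.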

How the data were processed

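Single cell 3′ libraries of E18.5 male UGS, P14 prostate and P35 prostate were made with the 10x Genomics Chromium system, and per the labels were processed with Cell Ranger 3.1.0 on mm10. The deposited table holds natural log values, which the authors made as ln(1 + 10000 × UMIs / total UMIs of the cell). From these, whole UMIs were recovered for 100% of values above 0, within 0.05 of a whole number. The 9781 rows used hold 49.4% to 52.7% of the UMIs, and the rest was not analysed here. Cells with at least 200 genes were integrated and clustered with Seurat 5.3.0 (20 dimensions, 2000 features, 30 principal components, resolution 0.5), without the FGF genes. No doublet was removed in the main result.

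Members, pathway lists and markers were chosen with earlier results of these data known, and the rule for naming clusters was set after clusters were seen. Named genes were the members, the listed pathway genes with a row and at least 100 UMIs, and the genes most like each member. Exact intervals were computed with scipy 1.17.1, and the steps were tested on simulated data. A sum under 3 UMIs was set to 3. Barcodes had no key to samples and each age had 1 library, so no test was run. The number of cells in set 1 equals the one stated in the study for UGS, while those of sets 2 and 3 equal neither of the others, and cell numbers were not used as a key. Alternatives were another resolution, no integration, a stricter cell filter, doublet removal, thinning, classing cells one by one, equal weight per cell, the deposited values, and parts of the epithelium or fibroblasts. Reads of overlapping genes (Fgf2 with Nudt6 and Fgf2os, Fgf7 with Fam227b, Fgfr1 with Gm31288 and Gm16159, Dusp6 with Gm34921) could be split by the counting.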

Additional observations from a re-analysis of the deposited data

How the results depend on the processing

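Values here are log2 ratios of epithelium over fibroblasts. Of 383 recomputed values, 275 stayed the same, 107 moved and 1 that was at least 2-fold turned sign. Staying the same meant lying within the counting interval or the count limit. For the deposited values, which gave 22 of the 275, it meant keeping the sign alone. Smaller ratios of Fgfr2 in set 1, Spry1 in sets 1 and 2 and Fgfr3 in sets 2 and 3 also changed sign under some alternatives. Cluster resolution 1.0 moved none of its 30. Without integration, the values that moved were Fgf2 -3.30 and -4.68 (sets 2 and 3), Fgf7 -1.28 and -3.46 (sets 2 and 3), Fgfr1 -3.65, -2.33 and -2.62 (sets 1, 2 and 3). With cells of at least 500 genes they were Fgf2 -4.51 and -5.88 (sets 2 and 3), Fgf7 -2.81 (set 2), Fgf21 -0.51 (set 1), Fgfr1 -3.51 (set 1), Fgfr2 0.89 (set 2), Spry1 -0.77 (set 3), Dusp6 1.56 (set 2). In set 2, 1 member was then at least 2-fold higher. The share of all genes was computed for the main setting alone, so counts of members under the alternatives stand without one. Removal of the 5% of cells with the highest doublet scores moved Fgf2 -6.17 (set 3). With cells thinned to 900 UMIs they were Fgf2 0.0042, -4.86 and -6.62 (sets 1, 2 and 3), Fgf7 -0.36 and -5.01 (sets 1 and 3), Fgf21 -3.28 (set 2), Fgfr1 -2.94 and -2.45 (sets 1 and 2), Fgfr2 0.034 (set 1), Fgfr3 2.45 and -1.18 (sets 1 and 2), Spry1 -1.36 (set 1). The count of members at least 2-fold lower in set 1 was then 2, namely Fgfr1 and Spry1, of which Spry1 was not among those of the main result. It likewise stands without a share of all genes. The values of Fgf2 and Fgf7 in set 1 came from 0 epithelial UMIs set to 3 beside few fibroblast UMIs and give no direction, and Fgf21 of set 1 gave no value, since both sums were under 3. With cells classed one by one by their marker UMIs they were Fgf2 -6.32 and -6.65 (sets 2 and 3), Fgf7 -3.91 and -4.90 (sets 2 and 3), Fgfr1 -2.90 and -2.58 (sets 2 and 3), Fgfr2 0.81 and 2.03 (sets 2 and 3), Fgfr3 -1.80 (set 2), Dusp6 0.99, 1.00 and 1.45 (sets 1, 2 and 3). In each of sets 1 and 2, 1 member was then at least 2-fold higher, with no share of all genes computed. The fibroblasts of this rule could hold other stromal cells. With equal weight for each cell they were Fgf7 -5.04 (set 3), Fgfr2 0.27 (set 1), Dusp6 2.31 and 4.06 (sets 2 and 3). As a difference of mean deposited values (natural log, compared by sign) they were Fgfr3 0.0081 (set 3), Spry1 0.11 (set 2). For basal cells over fibroblasts they were Fgf2 -4.13, -3.46 and -4.89 (sets 1, 2 and 3), Fgf7 -3.65 (set 1), Fgf21 -0.83 (set 1), Fgfr1 -3.22, -2.23 and -2.38 (sets 1, 2 and 3), Fgfr2 0.80 (set 1), Dusp6 2.65, 2.48 and 4.45 (sets 1, 2 and 3). Of these, Fgf2 and Fgf21 of set 1 rested on 1 basal UMI each, set to 3. For luminal cells they were Fgf2 -5.11 and -5.79 (sets 2 and 3), Fgfr1 -4.52, -3.20 and -3.01 (sets 1, 2 and 3), Fgfr2 2.62 (set 3), Spry1 -1.38, -0.62 and -1.59 (sets 1, 2 and 3), Dusp6 0.70, 1.11 and 2.64 (sets 1, 2 and 3). In set 1, 1 member was then at least 2-fold higher, again with no share of all genes computed. For cluster 11 they were Fgf2 -3.87, -2.97 and -6.11 (sets 1, 2 and 3), Fgf7 -4.86 (set 3), Fgf21 -0.56, -0.98 and -5.43 (sets 1, 2 and 3), Fgfr1 -2.92 and -3.80 (sets 2 and 3), Fgfr2 -0.018, 2.50 and 3.74 (sets 1, 2 and 3), Fgfr3 2.71, 1.72 and -1.12 (sets 1, 2 and 3), Spry1 0.036 and -0.72 (sets 1 and 3), Dusp6 1.43, 1.71 and 2.86 (sets 1, 2 and 3). Of these, Fgf2 of set 1, Fgf21 of all sets and Fgfr3 of sets 2 and 3 rested on 0 to 2 UMIs of cluster 11 set to 3, which raises the ratio, so 1.72 for Fgfr3 of set 2, from 0 UMIs, gives no direction. For epithelium over fibroblast cluster 1, chosen after seeing the data, they were Fgfr1 -2.51 (set 3), Fgfr2 -0.28 (set 1), Spry1 -1.25 and -1.83 (sets 1 and 3), Dusp6 1.48 (set 2). Over fibroblast cluster 2, likewise chosen, they were Fgf21 -4.83 (set 3), Fgfr1 -3.02 (set 3), Fgfr2 2.24 (set 1), Fgfr3 0.86 (set 3), Spry1 -0.29 and -0.13 (sets 1 and 3), Dusp6 2.71 and 4.08 (sets 2 and 3). Beyond the thinned values of Fgf2 and Fgf7 and the construction of the subsets, the cause was not tested. Leaving out clusters led by mitosis genes was not run, since none belonged to either class. No paired analysis was possible because each age had 1 library, which also allows no left-out replicate. Counts were low for Fgf21, with 37 UMIs in set 1, and for Fgfr3, with 53 in set 2, and wide intervals follow from such counts.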

Other observations

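Both unnamed clusters held FGF genes. Cluster 7, led by the myogenic genes Msc, Myf5 and Myod1 together with Ttn, had 15, 149 and 201 cells in sets 1, 2 and 3. It also carried 9 markers of the epithelial list, 6 each of the basal and smooth muscle lists and 4 of the fibroblast list, and their part in its levels was not tested. Its Dusp6 level was 139 CPM (113 to 169), 169 CPM (140.0 to 202) and 216 CPM (187 to 248). Fgfr1 was at 60.4, 256 and 118 CPM in these cells, and Fgf7 at 26.7, 61.1 and 62.0 CPM. Cluster 10, led by the mitosis genes Cenpf, Cenpa and Cenpe, had 19, 125 and 46 cells, with Fgf7 at 46.7, 118 and 77.6 CPM and Fgfr1 at 95.7, 209.7 and 254 CPM. The cluster carried 10 fibroblast and 6 smooth muscle markers and none of the epithelial list. Its Fgf21 UMIs numbered 0, 0 and 7.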
